A study of Mus musculus with 24 samples.

Results

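Very long genes, many of them at common fragile sites, were followed in the inner medulla of the mouse kidney after cisplatin. Cisplatin is a platinum drug whose adducts on neighbouring bases of DNA stall RNA polymerase. The set holds 9 of the 55416 gene identifiers in the count table: Fhit, Wwox, Dpyd, Immp2l, Exoc4, Macrod2, Magi1, Lpp and Naaladl2. They were named as very long genes, many at common fragile sites, and selected on their CPM in these 24 libraries. The cisplatin and saline levels of both sexes were thus in view. Which of the 9 lie at a fragile site in the mouse was not tested. All 9 passed the filter on low counts, among 18005 tested genes. The C57BL/6 mice were 9 to 10 weeks old and received a single intraperitoneal injection of 100 µl, and the inner medulla was collected 72 h later. The groups were males given cisplatin at 15 mg/kg (6 libraries), males given saline (6 libraries), females given cisplatin at 15 mg/kg (5 libraries) and females given saline (7 libraries). The labels do not say that each library came from a separate mouse, so the tests below measure the spread between libraries.

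A common fragile site is a stretch of a chromosome that breaks under replication stress, and most such sites lie inside very large genes. RNA polymerase takes hours to cross such a gene, and nearly everything it transcribes is intron that splicing removes. A lesion anywhere in the gene body can stop a polymerase, so a large gene offers more places for that than a small one. FHIT and WWOX, the genes of the fragile sites FRA3B and FRA16D in human, are often broken or deleted in tumours. In the kidney, cisplatin injures mostly the proximal tubule, which the inner medulla largely lacks.

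The 9 genes span 599.07 to 1997.7 kb in the GRCm38 annotation, yet their exons cover little of that. Macrod2 is the longest, at chr2:140395309-142392966 on the plus strand (1997.7 kb). Fhit runs over chr14:9550092-11162035 on the minus strand, 1611.9 kb of which exons cover 1491 bases, or 0.0925%. Naaladl2 lies at chr3:23798102-25144261 on the minus strand and spans 1346.2 kb. Immp2l, at chr12:41024090-41955588 on the plus strand, has 1832 exonic bases in 931.5 kb. Wwox (chr8:114439655-115352708, plus strand) and Dpyd (chr3:118562129-119432924, plus strand) span 913.05 and 870.8 kb. Exoc4 (chr6:33249085-33973979, plus strand) and Magi1 (chr6:93675455-94283917, minus strand) span 724.89 and 608.46 kb. Lpp is the shortest, at chr16:24393507-24992578 on the plus strand, and with 22046 exonic bases (3.68%) it holds the most exon of the set. The encoded proteins are of ordinary size: the longest coding sequence has 213 codons in Fhit and 1471 in Magi1.

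RefSeq promoters of GRCm38.p6 were matched for 7 of the 9 genes. The 250 bases before the RefSeq start are shown for 4 of them, for Dpyd, Fhit and Immp2l, whose fold changes under cisplatin lay below 0 in both sexes, and for Lpp, whose fold changes lay above 0. Dpyd alone of these passed the threshold in both sexes, Fhit passed in females, Lpp in males and Immp2l in neither. Exoc4 and Magi1, also matched and below 0 in both sexes, are not shown, nor is Macrod2. Capitals mark every GG and CC step, since neighbouring guanines on either strand are the favoured place of a platinum crosslink.

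Fhit, chr14:11162036-11162285, minus strand: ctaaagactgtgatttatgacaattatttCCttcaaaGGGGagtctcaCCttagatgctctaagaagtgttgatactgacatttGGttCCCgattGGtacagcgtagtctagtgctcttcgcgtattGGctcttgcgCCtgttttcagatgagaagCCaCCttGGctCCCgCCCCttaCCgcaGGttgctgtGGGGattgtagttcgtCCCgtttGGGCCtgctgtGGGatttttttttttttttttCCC
Dpyd, chr3:118561930-118562179, plus strand: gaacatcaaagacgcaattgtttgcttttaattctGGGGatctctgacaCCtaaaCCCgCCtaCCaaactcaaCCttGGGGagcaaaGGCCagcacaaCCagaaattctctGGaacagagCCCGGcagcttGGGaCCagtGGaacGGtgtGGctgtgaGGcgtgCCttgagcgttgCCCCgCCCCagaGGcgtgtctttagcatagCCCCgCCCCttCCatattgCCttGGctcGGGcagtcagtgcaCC
Immp2l, chr12:41023840-41024089, plus strand: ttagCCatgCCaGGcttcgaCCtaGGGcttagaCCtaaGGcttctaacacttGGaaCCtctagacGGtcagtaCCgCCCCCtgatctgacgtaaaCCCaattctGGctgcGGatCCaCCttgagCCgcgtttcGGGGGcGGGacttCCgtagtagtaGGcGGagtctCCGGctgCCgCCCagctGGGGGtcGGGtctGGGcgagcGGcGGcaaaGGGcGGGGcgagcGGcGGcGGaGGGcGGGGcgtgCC
Lpp, chr16:24393100-24393349, plus strand: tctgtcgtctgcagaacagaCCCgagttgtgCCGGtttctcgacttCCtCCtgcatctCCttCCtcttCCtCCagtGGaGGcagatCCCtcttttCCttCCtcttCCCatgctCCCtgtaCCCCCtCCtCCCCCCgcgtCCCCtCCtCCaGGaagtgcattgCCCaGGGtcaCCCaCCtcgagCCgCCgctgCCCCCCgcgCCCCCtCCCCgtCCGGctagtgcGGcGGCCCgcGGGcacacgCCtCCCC

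Overlapping GG and CC steps numbered 33 in the Fhit window, 46 in Dpyd, 61 in Immp2l and 69 in Lpp. Over all 32841 mouse promoters of that length the median was 40 steps, with an interquartile range of 29 to 53, and 32840 of them held at least 1 step. Fhit therefore stood at the 35.3 percentile and Lpp at the 93.4 percentile. Fhit and Lpp each have a further annotated start inside the gene, 708.6 and 328.5 kb from the one shown, with 29 and 26 steps before it. Those windows stood at the 26.6 and 20.4 percentiles. The windows shown lie before the RefSeq start, so they are not a sample of the span transcribed from it. The count of steps over the whole transcribed span was not made here.

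Libraries held 18084242 to 27279102 counts. Of 18005 tested genes, 3731 passed the threshold under cisplatin in males and 49 in females (edgeR quasi-likelihood test, Benjamini-Hochberg adjusted p under 0.05). Levels are given in CPM (counts per 1000000 counts of the library), scaled by the trimmed mean of M values (TMM). Marker genes of proximal tubule, thick ascending limb, thin limb, principal and intercalated cells, fibroblasts, endothelium and urothelium were all detected, so the dissected tissue held more than collecting duct. 3 libraries stood apart in composition. Summed thick ascending limb markers reached 2397 CPM in male cisplatin library 5, against 3456 to 9110 CPM in the other male cisplatin libraries, and 1254 CPM in female saline library 6, against 3037 to 12670 CPM in the other female saline libraries. Lymphocyte markers summed to 36.35 CPM in female saline library 1 and to at most 3.315 CPM in the other female saline libraries.

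In males, 2 of the 9 genes passed the threshold as higher under cisplatin (Lpp and Naaladl2) and 2 as lower (Wwox and Dpyd), where 20.7% of all tested genes passed, 13.2% as higher and 7.54% as lower. In females none passed as higher and 3 as lower (Fhit, Wwox and Dpyd), where 0.272% of all tested genes passed, 0.2% as higher and 0.0722% as lower. The genes were chosen with this contrast in view, so their cisplatin values are a description. That holds also for groups said below not to overlap: the share of all tested genes whose groups did not overlap was not counted. Fold changes lay below 0 for 7 of 9 genes in males and 6 of 9 in females. Among the other tested genes of 500 kb or more, 76.26% lay below 0 in males and 76.98% in females. Among genes under 10 kb these shares were 34.21% and 38.93%. The median log2 fold change of the 9 was -0.20 in males and -0.25 in females, beside 0.02 and 0.01 over all tested genes. In bulk tissue, fewer cells of a type and less RNA per cell cannot be told apart.

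**Figure D1:**
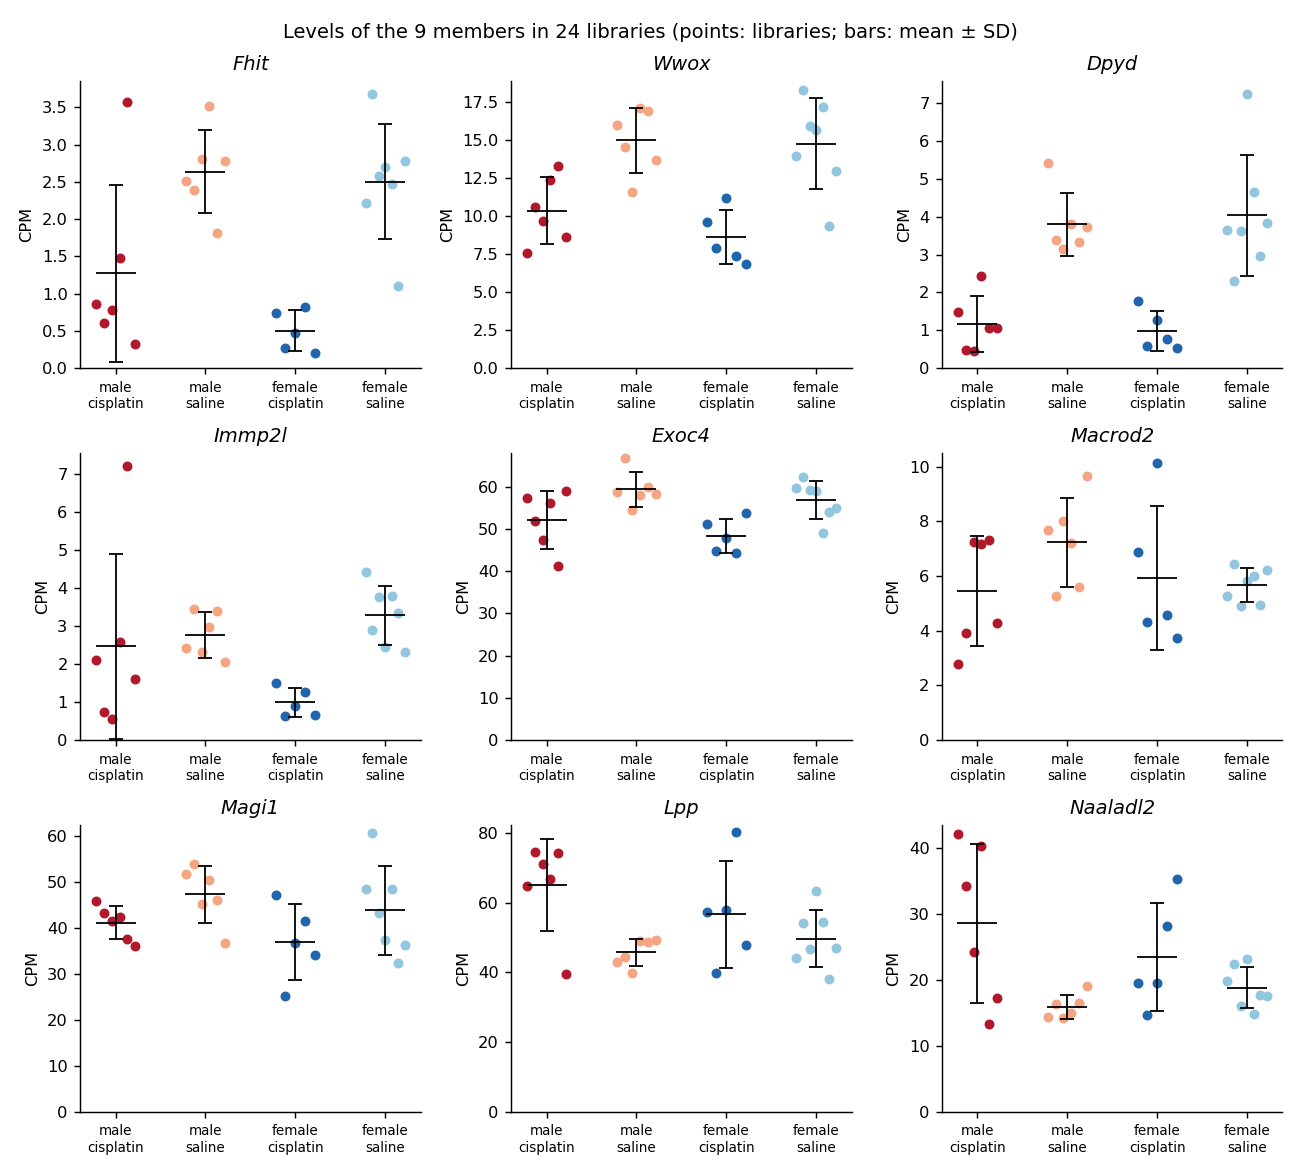
CPM of each of the 9 genes in every library, 1 panel a gene on its own linear axis from 0, with cisplatin left of saline within each sex; points are libraries and bars are group means with SD. Dpyd in both sexes and Fhit and Immp2l in females show cisplatin libraries wholly below the saline libraries, and 1 male cisplatin library stands high for Fhit (3.58 CPM) and Immp2l (7.21 CPM).

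Among the enzymes of nucleotides and ADP-ribose, Fhit and Dpyd were lower and Macrod2 differed little. Fhit, a histidine triad hydrolase of diadenosine polyphosphates and a tumour suppressor, had 0.73, 0.27, 0.47, 0.83 and 0.21 CPM in female cisplatin libraries, against 1.10 to 3.67 CPM (median 2.58) in female saline libraries. These groups did not overlap, and the log2 fold change was -2.31 (SE 0.462), or 20.15% of the saline level. The female call was lost with the replicate block and without female cisplatin library 5, female saline library 2 or female saline library 4. In males given cisplatin Fhit ranged from 0.33 to 3.58 CPM with a median of 0.82, against 1.82 to 3.51 CPM (median 2.65) in males given saline. 5 of the 6 male cisplatin libraries lay below every male saline library, and 1, library 5, lay above them all. The male log2 fold change was -1.07 (SE 0.408), and it was -1.70 without male cisplatin library 5, where it passed the threshold. Fhit is a weakly expressed gene here: its values rest on 5 to 84 counts a library.

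Dpyd encodes dihydropyrimidine dehydrogenase, which starts the breakdown of uracil and thymine and of the drug 5-fluorouracil. Its levels were 1.77, 0.58, 1.27, 0.78 and 0.54 CPM in females given cisplatin, against 2.29 to 7.24 CPM (median 3.64) in females given saline. Male cisplatin libraries held 0.44 to 2.43 CPM (median 1.06), against 3.13 to 5.41 CPM (median 3.55) in male saline libraries. Neither pair of groups overlapped, and Dpyd was the only one of the 9 of which that held in both sexes. How many of all tested genes did the same was not counted. The log2 fold changes were -2.03 (SE 0.379) in females and -1.68 (SE 0.356) in males. The female call was lost without female cisplatin library 4 or 5, and the male call held in all 20 alternative fits that bear on it.

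Macrod2, a hydrolase that removes mono-ADP-ribose from proteins, is the longest of the genes and did not pass in either sex. It averaged 5.45 ± 2.03 CPM in 6 male cisplatin libraries and 7.23 ± 1.63 CPM in 6 male saline libraries (SD). Female cisplatin libraries held 6.86, 4.31, 10.1, 4.57 and 3.72 CPM, against 4.88 to 6.44 CPM in female saline libraries, so the cisplatin values lay on both sides. Its log2 fold changes were -0.41 (SE 0.243) in males and 0.06 (SE 0.246) in females, where it came to -0.22 without female cisplatin library 3.

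Immp2l encodes a catalytic subunit of the inner mitochondrial membrane peptidase, which trims proteins of the intermembrane space. Female cisplatin libraries held 1.51, 0.62, 0.90, 1.26 and 0.67 CPM, against 2.33 to 4.44 CPM (median 3.34) in female saline libraries. The groups did not overlap, and the log2 fold change was -1.72 (SE 0.437), although Immp2l did not pass the threshold in females. Male cisplatin libraries spread from 0.55 to 7.21 CPM (median 1.85), around the 2.05 to 3.45 CPM of male saline libraries. The male log2 fold change of -0.18 (SE 0.398) came to 0.014 and 0.029 without male cisplatin library 2 or 3, and to -0.86 without male cisplatin library 5, the library that was also high for Fhit. Immp2l did not pass there either.

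Wwox, an adaptor protein with WW domains and a short-chain dehydrogenase fold, passed as lower in both sexes. It had 9.58, 7.90, 11.2, 7.39 and 6.86 CPM in females given cisplatin, against 9.34 to 18.3 CPM (median 15.6) in females given saline. Male cisplatin libraries held 7.53 to 13.3 CPM (median 10.1), against 11.6 to 17.1 CPM (median 15.2) in male saline libraries. The ranges overlapped in both sexes. The log2 fold changes were -0.78 (SE 0.17) in females and -0.53 (SE 0.164) in males. The female call held in 8 of 20 alternative fits and the male call in 15 of 20. With libraries left out one at a time, the female call was lost for female cisplatin libraries 2, 4 and 5 and female saline libraries 1, 2, 3, 4, 5 and 7, and the male call for male cisplatin libraries 1 and 3 and male saline libraries 4 and 5.

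The scaffold and trafficking genes were far more abundant and moved less. Exoc4, a subunit of the exocyst that tethers secretory vesicles to the plasma membrane, averaged 52.1 ± 6.83 CPM in 6 male cisplatin and 59.4 ± 4.06 CPM in 6 male saline libraries (SD). In females it averaged 48.3 ± 4.06 CPM in 5 cisplatin and 56.9 ± 4.49 CPM in 7 saline libraries. Both log2 fold changes were small, -0.19 (SE 0.0854) in males and -0.24 (SE 0.0871) in females, and neither passed. Magi1, a scaffold of tight junctions, had log2 fold changes of -0.20 (SE 0.142) in males and -0.25 (SE 0.145) in females and did not pass.

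Lpp and Naaladl2 lay the other way. Lpp, a zyxin-family LIM protein of focal adhesions, held 39.6 to 74.6 CPM (median 69.0) in male cisplatin libraries, against 39.7 to 49.4 CPM (median 46.6) in male saline libraries. 5 of the 6 cisplatin libraries were above every saline library and the remaining one, library 6, was below them all. In females Lpp had 57.3, 39.7, 58.0, 80.4 and 47.8 CPM under cisplatin, against 38.2 to 63.3 CPM under saline, with wide overlap. The log2 fold changes were 0.51 (SE 0.153) in males and 0.19 (SE 0.154) in females. The male call was lost without male cisplatin library 2, male cisplatin library 5 or male saline library 3.

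Naaladl2, a relative of glutamate carboxypeptidase II, held 13.3 to 42.1 CPM (median 29.2) in male cisplatin libraries, against 14.2 to 19.0 CPM (median 15.7) in male saline libraries. Male cisplatin libraries 5 and 6 lay at 13.3 and 17.3 CPM, inside or below the saline range, and the other 4 above it. Females had 19.5, 14.7, 19.5, 28.2 and 35.2 CPM under cisplatin, against 14.9 to 23.2 CPM under saline. The log2 fold changes were 0.85 (SE 0.232) in males and 0.32 (SE 0.232) in females.

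**Figure D2:**
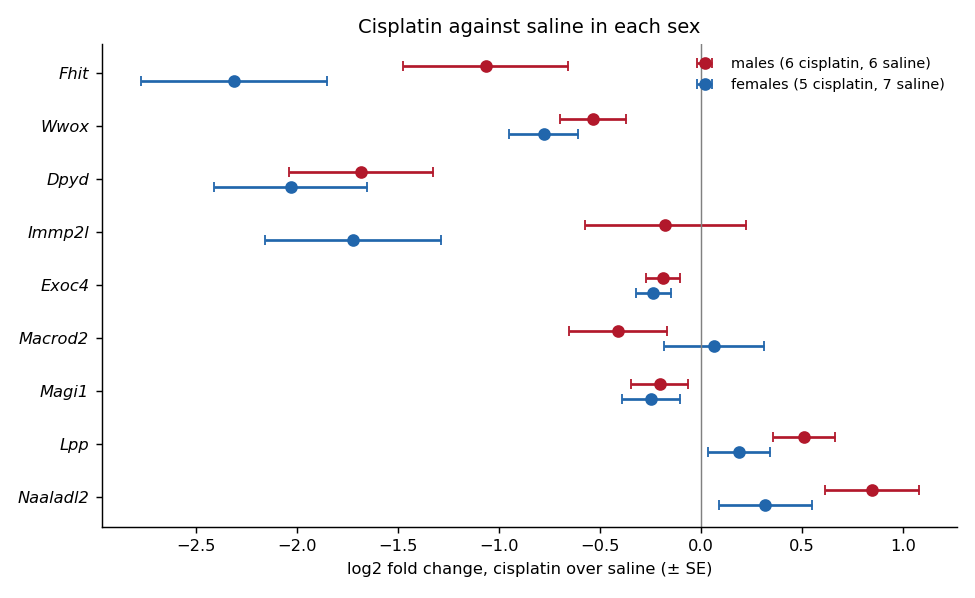
Log2 fold change of cisplatin over saline with its standard error for each of the 9 genes in males and in females. Dpyd (-1.68 in males, -2.03 in females) and Fhit (-1.07 and -2.31) lie lowest, and Naaladl2 (0.85 and 0.32) and Lpp (0.51 and 0.19) lie above 0 in both sexes.

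The order of the differences was not that of the genomic spans. Fhit and Macrod2, the longest of the 9, lay far apart in females, at -2.31 and 0.06, with Macrod2 at -0.22 without female cisplatin library 3. In males they were nearer, at -1.07 (SE 0.408) and -0.41 (SE 0.243). Naaladl2, at 1346.2 kb, lay above 0, and Exoc4 and Magi1 lay near 0. Per kilobase of exon, under saline in males, levels ran from 0.427 CPM per kb for Dpyd and 0.701 for Macrod2 to 4.48 for Magi1 and 4.70 for Exoc4. Lpp (2.08 CPM per kb), Fhit (1.77), Naaladl2 (1.53), Immp2l (1.51) and Wwox (1.47) lay between. Naaladl2, Immp2l and Wwox did not differ beyond their spread (SD 0.174, 0.325 and 0.209). Nor did Fhit (SD 0.375) differ beyond its spread from these or from Lpp.

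The levels of both sexes were in view when the genes were chosen, so their sex differences are values that the choice had seen. None of the 9 passed for the interaction, the female minus male difference of the log2 fold change under cisplatin, where 0% of all tested genes did (edgeR; 772 of 18005 at an unadjusted p under 0.05, and 0 also by DESeq2). Immp2l had an interaction of -1.55 (SE 0.585) and Fhit one of -1.25 (SE 0.605). Without male cisplatin library 5 these were -0.86 for Immp2l and -0.61 for Fhit. All interactions but that of Macrod2 (0.47, SE 0.345) were below 0.

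Between females and males given saline none of the 9 passed, beside 0.189% of all tested genes (0.0611% as higher in females and 0.128% as lower). The largest differences were -0.35 (SE 0.233) for Macrod2 and 0.24 (SE 0.381) for Immp2l on the log2 scale. Under cisplatin none of the 9 passed between females and males, beside 0.156% of all tested genes (0.106% as higher in females and 0.05% as lower). Fhit averaged 0.502 ± 0.274 CPM in 5 female and 1.27 ± 1.19 CPM in 6 male cisplatin libraries (SD), a log2 difference of -1.32 (SE 0.474). Immp2l averaged 0.993 ± 0.385 CPM in females and 2.46 ± 2.45 CPM in males, a log2 difference of -1.30 (SE 0.446). Without male cisplatin library 5 and the 2 divergent female saline libraries, the differences were -0.70 for Fhit and -0.63 for Immp2l.

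Within the cisplatin groups, the libraries did not order alike for every gene. The plot of log2 ratios shows each library against the mean of its own sex under saline. Between 5 and 8 of the 9 genes lay below that mean in male cisplatin libraries and between 5 and 9 in female cisplatin libraries, against 2 to 7 in male saline and 2 to 8 in female saline libraries. Female cisplatin library 2 had all 9 genes below it, with Fhit at -2.80 and Dpyd at -2.55 on the log2 scale. That library and female cisplatin library 3 held little Lcn2, an injury marker of the tubule, at 111.0 and 122.1 CPM, within the 49.39 to 129.2 CPM of female saline libraries. Male cisplatin library 6 had 212.9 CPM of Lcn2, against 1265 to 6589 CPM in the other male cisplatin libraries. Fhit was at 0.27, 0.47 and 0.33 CPM in these 3; the part of tubule injury in its level was not tested.

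**Figure D3:**
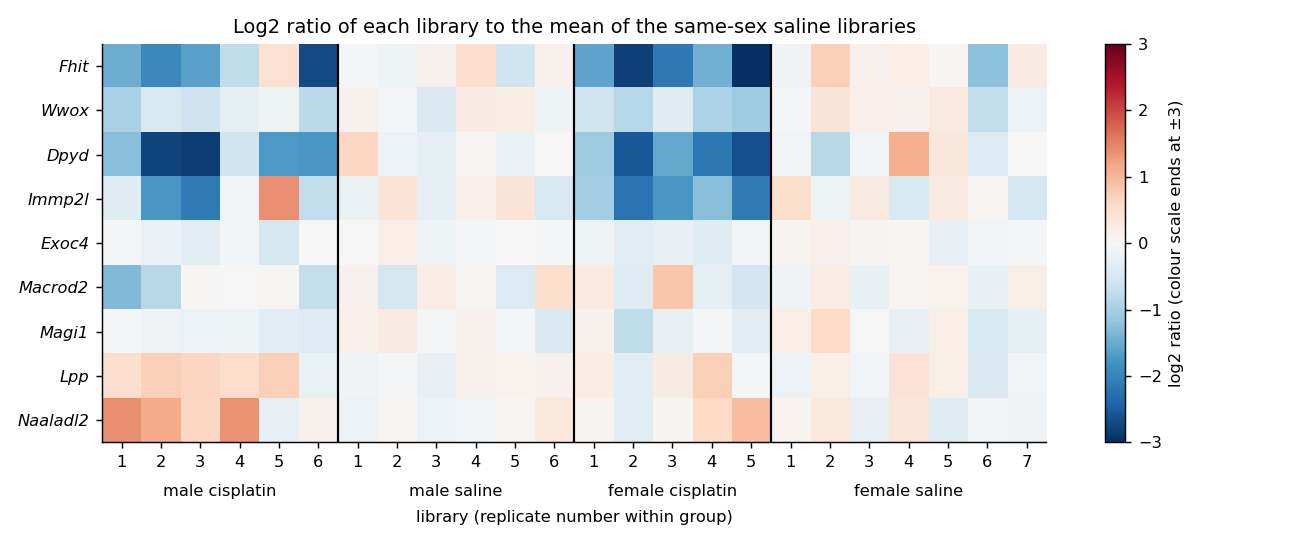
Log2 ratio of each library's CPM to the mean of its own sex under saline, as a heat map with genes in rows and libraries in columns, cisplatin left of saline; blue is below and red above the saline mean. Female cisplatin library 2 has all 9 genes below 0, and female saline library 6 has 8 of 9 below 0.

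Female saline library 6 lay low as well, with 8 of the 9 genes below the female saline mean and Fhit at 1.10 CPM. Its tubule marker score, the mean log2 CPM of 23 markers of the proximal tubule and the thick ascending limb, was 3.94, the lowest of the female saline libraries. Over the groups the score was 3.42 to 5.77 in male cisplatin and 4.80 to 6.14 in male saline libraries, and 3.67 to 5.43 in female cisplatin and 3.94 to 5.48 in female saline libraries. With the score as a covariate the male fold changes were -0.70 for Fhit, -0.04 for Macrod2 and -1.35 for Dpyd, and the male calls of Wwox and Naaladl2 and the female call of Wwox were lost. Without the 3 divergent libraries the male fold changes were -1.69 for Fhit, -0.85 for Immp2l and -1.66 for Dpyd, and the female ones were -2.50, -1.61 and -2.13.

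Marker lists of other cells moved as well. In males, 7 of 10 fibroblast markers, 6 of 11 endothelial, 3 of 6 smooth muscle and pericyte, 3 of 10 intercalated cell and 5 of 5 erythroid markers fell. Summed fibroblast markers were 155.6 to 879.0 CPM in male cisplatin and 910.9 to 1100 CPM in male saline libraries, and 341.3 to 972.4 CPM in female cisplatin and 575.2 to 1274 CPM in female saline libraries. Endothelial sums were 1025 to 3119 CPM in male cisplatin and 2609 to 3061 CPM in male saline libraries, and none of the markers of either list was at 0. Of the tubule lists, 0 of 16 proximal tubule markers passed, 1 of 7 thick ascending limb markers fell, thin limb markers had 1 higher and 1 lower of 8, and principal cell markers 1 higher and 2 lower of 12. Median log2 fold changes in males were -0.53 for proximal tubule, -0.41 for thick ascending limb, -0.17 for thin limb and 0.03 for principal cell markers. In females these medians were -0.51, 0.06, -0.22 and -0.06. Macrophage markers had 2 higher and 2 lower of 11, urothelial markers 3 higher of 8, and neither of 2 lymphocyte markers passed; no neutrophil marker reached the filter. In females only the erythroid list passed, with 5 of 5 lower. The covariate holds only proximal tubule and thick ascending limb markers, and how far it follows the other lists was not tested. Its median was itself lower under cisplatin, at 4.93 against 5.49 in males and 4.59 against 4.95 in females. The part of cell composition in the values of the 9 genes was not tested.

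The other very long genes of the annotation were set beside the 9. Of 228 further genes with a span of 500 kb or more, 139 were tested. In males 40 of the 139 (28.8%) fell under cisplatin and 8 (5.76%) rose, and in females 1 fell (0.719%) and none rose by edgeR. DESeq2 was run without the filter on low counts, so its long genes are not only these 139. By DESeq2 8 long genes fell and 1 rose in females, beside 85 lower and 152 higher over all genes. Their median log2 fold change was -0.35 in males and -0.27 in females, and 99 of the 139 lay below 0 in both sexes. The medians of the 9 genes were -0.20 and -0.25, above those of the other long genes here, but below them in 4 of 20 alternative fits in males and 10 of 20 in females. With the replicate block, for example, the male medians were -0.42 for the 9 and -0.37 for the other long genes, and without male cisplatin library 5 they were -0.52 and -0.38. The DESeq2 and no-filter fits set the 9 beside long genes of low counts as well, not only the 139. The difference between the sets was not tested. Ptprn2, a receptor-type phosphatase of secretory granules spanning 791.1 kb, was the one that fell in both sexes. It averaged 1.14 ± 0.403 CPM in male cisplatin and 4.74 ± 1.34 CPM in male saline libraries, and 1.33 ± 0.819 CPM in female cisplatin and 4.61 ± 1.98 CPM in female saline libraries (SD). In males the falling genes with the lowest p also held Adamtsl1 (-1.20), Lama2 (-1.43), Inpp4b (-1.08), Ryr2 (-2.03) and Negr1 (-1.38), and those that rose held Asic2 (2.95), Nav2 (0.79), Slc7a11 (3.91) and Mir99ahg (1.29). In females Sdk1, Atp8a2, Robo1, Sugct and Slc9a9 had log2 fold changes of -1.33, -0.98, -0.76, -1.40 and -0.77 without passing, and Asic2, Camta1 and Slc7a11 had 2.52, 0.35 and 2.74, also without passing.

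The fold changes of all tested genes other than the 9 were ordered by span. In males the median was 0.19 for 6147 genes under 10 kb, 0.04 for 5244 of 10 to 30 kb, -0.08 for 4483 of 30 to 100 kb, -0.14 for 1301 of 100 to 200 kb, -0.17 for 617 of 200 to 500 kb and -0.35 for the 139 of 500 kb or more. In females the medians were 0.09, 0.03, -0.04, -0.10, -0.17 and -0.27 over the same classes. The fall did not deepen further among the longest genes. With a span minimum of 1000 kb the medians were -0.215 in males (2 higher and 9 lower) and -0.164 in females, above those for 500 kb or more. The share that fell in males was 2.73% in the shortest class and 28.8% in the longest. Exon length went with span, from a median of 1.98 kb in the shortest class to 11.4 kb in the longest. Among genes with 3 to 6 kb of exon, a selection made after seeing the data, the medians of the longest class (21 genes) were -0.55 in males and -0.49 in females, and those of the shortest 0.12 and 0.03, while the class of 200 to 500 kb had -0.09 in males, above the -0.13 of the class of 100 to 200 kb.

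**Figure D4:**
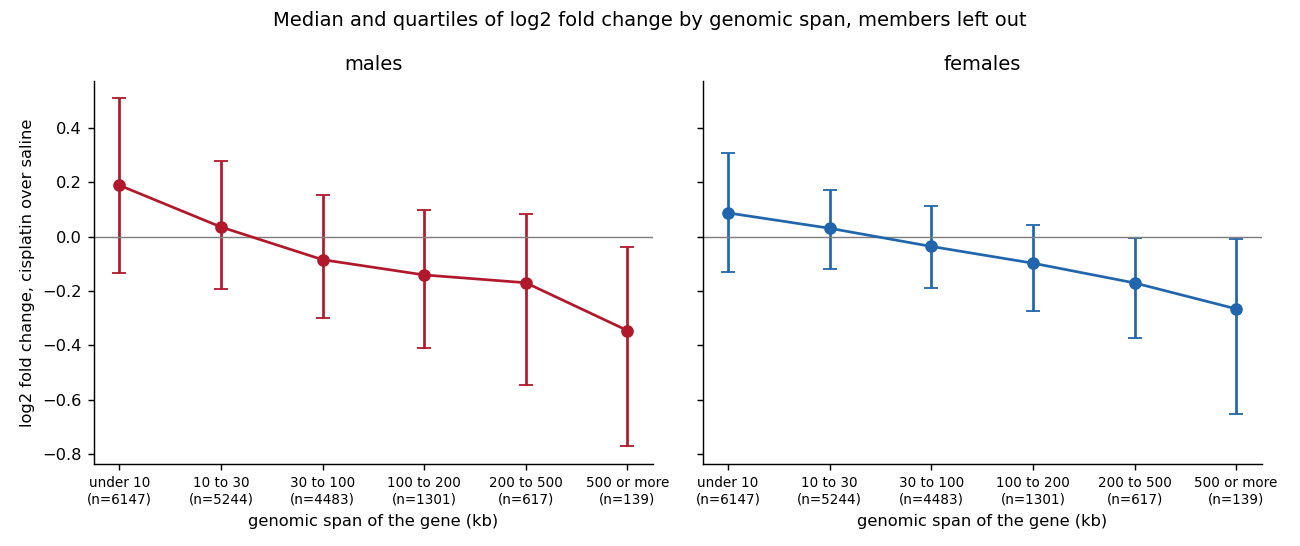
Median log2 fold change of cisplatin over saline, with bars for the interquartile range, by genomic span of the gene in kb, for males and females. The 9 genes of the set are left out. From the class under 10 kb to that of 500 kb or more, the medians run from 0.19 to -0.35 in males and from 0.09 to -0.27 in females.

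Per library, the median log2 ratio of the 139 long genes minus that of genes under 10 kb was -0.84 to -0.26 in the 6 male cisplatin libraries and -0.11 to 0.12 in the 6 male saline libraries, which did not overlap. In females it was -0.65 to -0.08 in 5 cisplatin libraries and -0.37 to 0.22 in 7 saline libraries, and female saline library 6 gave the -0.37. The next lowest female saline library was at -0.06, above all the female cisplatin libraries.

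**Figure D5:**
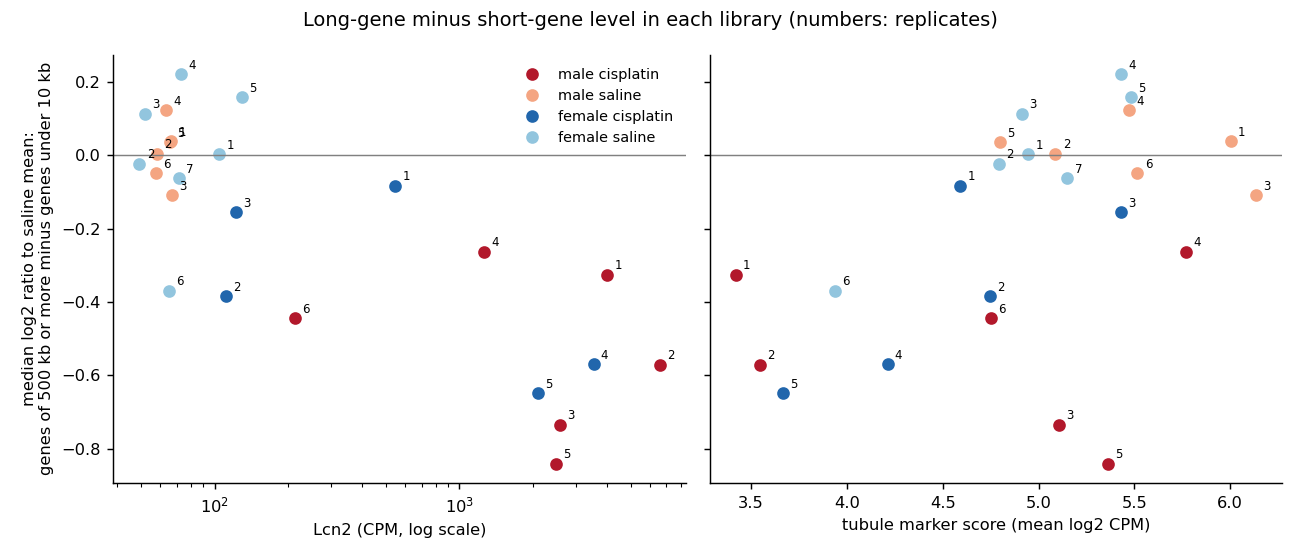
For each library, the median log2 ratio to the saline mean of its own sex for 139 genes of 500 kb or more, minus that for genes under 10 kb, plotted against Lcn2 (CPM, log scale) on the left and the tubule marker score (mean log2 CPM) on the right; numbers are replicates. Male cisplatin libraries lie between -0.84 and -0.26, below all male saline libraries, and in females 1 saline library (-0.37) lies among the cisplatin libraries.

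The nearest tested genes on either side of the 9, and genes inside them, were also measured. The 18 nearest tested protein-coding genes on either side have a median span of 104.4 kb. Not all are close: they lay from 55.47 kb (Lrguk, beside Exoc4) to 2250 kb (Dnajb9, beside Immp2l) away. In males 0 rose and 3 fell (Dock4, Dnajb9 and Lrguk), with a median log2 fold change of -0.06, and in females none passed. Of genes inside the 9, 5 were tested: Lrrn3, inside Immp2l on the opposite strand, fell in males (-1.25), Gm7536 in Naaladl2 rose in males (0.89), and Slc25a5-ps in Fhit, Flrt3 in Macrod2 and Morf4l1-ps1 in Lpp did not pass. No source used here gives the strand setting of the counting, so reads from overlapping genes cannot be told apart.

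Related genes are given as counts, beside the 13.2% of all tested genes that rose and the 7.54% that fell in males, and the 0.2% and 0.0722% in females. Of 12 tested further genes of common fragile sites, 4 fell in males, 0 rose, and none passed in females. In males Dlg2 fell by 1.41, Magi2 by 0.97, Pde4d by 0.77 and Rora by 0.39 on the log2 scale. These 4 are also among the 139 genes of 500 kb or more, of which 28.8% fell in males, so they are not separate evidence. The list medians were -0.30 in males and -0.13 in females. Of 17 genes of transcription-coupled repair, Ercc1, a subunit of the nuclease that cuts beside a lesion, rose by 0.34 and Polr2a, the catalytic subunit of RNA polymerase II, fell by 0.69 in males. Of 22 elongation factors, Supt5, Supt6 and Cdc73 fell by 0.35, 0.34 and 0.30 and the kinase Cdk9 rose by 0.26 in males. Of 17 genes that maintain fragile sites, the polymerase subunit Pold3 rose by 0.50 and the helicase Wrn fell by 0.45 in males. None of these passed in females.

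Among the partners and relatives of single members, the exocyst list had 1 of 8 subunits lower in males (Exoc3, -0.23), beside Exoc4 at -0.19. Of 6 pyrimidine enzymes, Tk1, a thymidine kinase of dividing cells, rose by 0.75 in males, while Dpyd had -1.68. Of the other 2 MAGI genes Magi2, already counted above, fell, and of 6 zyxin-family genes Trip6 rose by 0.42. In the list of 9 macrodomain and ADP-ribose genes, 4 rose in males: the interferon-inducible Parp14 (1.54) and Parp9 (1.21), and the hydrolases Oard1 (0.46) and Adprhl2 (0.33). Of 11 mitochondrial peptidases, Mipep and Yme1l1 fell by 0.34 and 0.26, of 4 relatives of glutamate carboxypeptidase II, Naalad2 and Tfrc fell by 1.08 and 0.78, and of 6 histidine triad genes Galt and Hint1 rose by 0.51 and 0.38, all in males. None of these lists had a member past the threshold in females.

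Over the 24 libraries, after subtraction of the group means, the genes whose log2 CPM followed the mean of the 9 most closely were Pcsk5, a proprotein convertase (Pearson r 0.817), the oestrogen receptor gene Esr1 (0.782), Fndc4 (0.78), the methionine sulfoxide reductase Msra (0.78) and Lrmda (0.777). Among the 9 themselves the 36 pairs had a median r of 0.269, with 27 above 0, from -0.402 for Fhit and Exoc4 to 0.658 for Fhit and Lpp. These are descriptions over libraries that share their tissue dissection and depth.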

How the data were processed

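Poly(A) RNA of the kidney inner medulla was sequenced in 24 libraries of 4 groups, assigned from the labels. Values are the counts per gene deposited by the authors, whole numbers that were not normalized. Per the submitters' processing notes, the tools were Trim Galore 0.6.7, Subread 2.0.1, featureCounts and DESeq2 1.28.1, with the build mm10. No source used here gives the aligner, strand setting or annotation release. From these counts, edgeR 4.0.16 (R 4.3.3) fitted group means to all 24 libraries by quasi-likelihood, after filterByExpr (minimum count 10) and TMM scaling, with Benjamini-Hochberg adjustment over 18005 tested genes and a threshold of 0.05. The contrasts were cisplatin over saline in each sex, their difference, and female over male under either treatment. Depth was 18084242 to 27279102 counts, and low genes such as Fhit rest on few counts. Spans and exons came from GENCODE M21, which holds 52135 of 55416 identifiers; the other 3281 carry 0.221% of counts. Promoters are RefSeq's. The model was tested on simulated data. No pair of libraries was a copy (lowest chi-square per gene 7.55 over 276 pairs). Alternatives were DESeq2 1.42.0, RLE factors, total counts, no filter, a replicate block, only the groups compared, a tubule marker covariate, and libraries left out.

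The members, the gene lists and the cell type markers were chosen with earlier results of these data known. Named genes are the 9 members, up to 4 genes of each list past the threshold by size of fold change, the very long genes with the lowest p (6 lower, 4 higher, per sex), the nearest neighbours, and the 5 genes most like the members. For cell type marker lists, counts and sums are given without gene names. One gene that this rule names is not reported here.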

Additional observations from a re-analysis of the deposited data

Results flagged for a closer look

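Of 36 sets of 4 or more libraries (9 genes in 4 groups), 4 held a library far from the others by Dixon's gap test; chance flags about 1 in 20 such sets. Fhit stood at 3.579 CPM and Immp2l at 7.211 CPM in male cisplatin library 5, both above all other libraries of that group. Summed urothelial markers were 533.6 CPM in that library, against 242.4 to 355.9 CPM in the other male cisplatin libraries, and thick ascending limb markers 2397 CPM, against 3456 to 9110 CPM; their part in the 2 values was not tested. Lpp stood at 39.56 CPM in male cisplatin library 6, below the others of its group, and that library held 212.9 CPM of Lcn2, against 1265 to 6589 CPM in the other male cisplatin libraries. Dpyd stood at 5.412 CPM in male saline library 1, above the other male saline libraries, the highest of which had 3.81 CPM.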

How the results depend on the processing

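The 999 fits of single members under other settings or with 1 library left out kept their direction in all but 21. Of these, 18 were sex contrasts or interactions and 3 were cisplatin contrasts, Macrod2 in females (-0.22 without female cisplatin library 3) and Immp2l in males (0.014 and 0.029 without male cisplatin library 2 or 3). The count of genes passing in females (49) came to 237 with DESeq2, 85 with no filter, 20 with only the groups compared, 27 with the tubule score as covariate, 32 without the 3 divergent libraries and 21 to 139 with 1 library left out (21 without female cisplatin library 4 or 5, 139 without female cisplatin library 3). The count in males (3731) came to 2402 with only the groups compared and 1828 with the covariate. Under saline the count between the sexes (34) was 54 with DESeq2 and 21 to 41 with 1 library left out, and under cisplatin (28) it was 119 with DESeq2, 46 with the covariate and 12 to 120 with 1 library left out (12 without male cisplatin library 3, 120 without female cisplatin library 4). No interaction passed in any setting.

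With the replicate number as a block, 16 genes passed in females and the calls of Fhit and Wwox there were lost, while Fhit passed in males. The labels do not say whether equal numbers mark a pair or a batch. For no pair of groups did all same-numbered libraries deviate together (correlations -0.297 to 0.28). For male cisplatin and female saline, however, 3 of 6 correlations were over 0.1. Libraries with unlike numbers were not set beside these, so a partial batch was not tested. The median of the 9 in males (-0.20) was -0.42 with the block and -0.51 without the 3 divergent libraries.

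The female over male difference under saline was 0.22 for Fhit and 0.079 for Wwox with the covariate, 0.11 and 0.095 without the 3 libraries, and -0.19 to 0.052 and -0.086 to 0.064 with 1 library left out. With 1 library left out, Dpyd ran from -0.67 to 0.031 for the interaction, -0.58 to 0.12 between the sexes under cisplatin and -0.11 to 0.22 under saline, Macrod2 from -0.16 to 0.25 under cisplatin, and Magi1 from -0.15 to 0.069 for the interaction. The cause was not tested. In males Fhit also passed with DESeq2, and in females Immp2l passed with DESeq2 and with only the groups compared. Fhit, Dpyd and Immp2l rest on 5 to 190 counts a library, which limits their precision.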
